A study of Mus musculus with 18 samples.

Results

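The genes examined were 10 secreted regulators of bone morphogenetic protein (BMP) signalling, 7 ligands (Bmp2, Bmp3, Bmp4, Bmp5, Bmp6, Bmp7 and Gdf10) and 3 antagonists (Chrdl1, Grem1 and Nog), in the cochlea of 4-week-old mice. They were chosen by gene symbol from the 46583 genes of the count table, and all 10 passed the filter on low counts, which left 17901 genes. RNA came from the base, middle and apex of the cochlea, in control mice, whose genotype is labelled WT, and in mice labelled as an Fst conditional knock-out (cKO). Fst encodes follistatin, a secreted protein that binds activins. All animals were untreated, and the labels used here do not name the Cre line or the cells in which Fst was removed. Cochlear pieces of 1 region and 1 genotype were pooled before RNA extraction, and each of the 6 RNA pools was split into 3 technical libraries. The 18 libraries therefore hold 1 pool per group, and a p-value between libraries measures only the technical spread around that pool.

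BMP ligands are secreted dimers that bind type I and type II receptors at the cell surface, and the receptors phosphorylate Smad proteins, which enter the nucleus and switch on genes such as the Id family. Antagonists such as noggin, gremlin and the chordin family bind the ligands outside the cell and keep them from the receptors. BMP signals help to pattern the inner ear during development, and the same ligands act in bone and cartilage, tissues that lie next to the membranous cochlea. Bmp3 and Gdf10 (also named BMP3b) form a divergent branch of the family, and BMP3 is known as a bone matrix protein that opposes the bone-forming BMPs.

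Library totals ran from 24446765 to 33732709 counts. Fst, the targeted gene, had 671, 722 and 712 counts in the control apex and 260, 258 and 278 in the cKO apex. In the middle it had 197, 191 and 166 counts in control and 91, 97 and 114 in cKO. In the base it had 64, 63 and 59 counts in control and 51, 49 and 45 in cKO. Scaled to library size, the edgeR log2 change in cKO was -1.29 in the apex, -1.1 in the middle and -0.22 in the base (adjusted p = 0.308, not passed). Fst therefore remained detected in cKO, and its level checks the labels only in the apex and middle. Hair cell markers were present in all groups, with summed levels of 148.2 to 158.5 CPM (counts scaled to library size) in the base and 437 to 496.2 CPM in the apex. The pools also differed in markers of cochlear cell types, blood, glia and neighbouring tissues, and the lists with called genes are given for the control apex against the base and for each genotype comparison.

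Per transcript length, Bmp6 was the most abundant member and Grem1 the least abundant in each of the 6 groups. Bmp6, best known as a regulator of iron balance made by liver endothelium, had a mean level between 27.6 and 33.5 FPKM, fragments scaled to transcript length and library size. Bmp7, a ligand needed for kidney and eye development, came next at 15.7 to 20.4 FPKM, and Bmp4, a ligand of the developing sensory patches of the ear, followed at 11.8 to 20.3 FPKM. Bmp5, whose loss causes the short-ear mutation of mouse, stood at 8.77 to 11.7 FPKM. By group means these 4 ligands held ranks 1 to 4 in this order in all groups. In the cKO apex Bmp7 (20.4 ± 0.439 FPKM, SD, n = 3 libraries) and Bmp4 (20.3 ± 0.919) did not differ beyond their spread, and in replicate 3 Bmp4 (21.2) lay above Bmp7 (20).

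Chrdl1, chordin-like 1, was the main antagonist among the 3, at 6.61 to 9.21 FPKM, and made up 81.1% to 86.2% of their summed FPKM. Noggin (Nog) reached 0.91 to 1.27 FPKM and Grem1, gremlin 1, 0.308 to 0.615 FPKM. Bmp2, a bone-inducing ligand, lay at 1.11 to 1.65 FPKM and Bmp3 at 0.598 to 1.63 FPKM. The summed FPKM of the 7 ligands was lowest in the control middle (73.2 ± 2, SD, n = 3 libraries) and highest in the cKO apex (86.5 ± 1.14). In CPM, which is not scaled to transcript length, the 3 antagonists summed to 25.2 to 39.1 over the libraries. For 16 other genes listed as antagonists of the pathway the sum was 856.4 to 1038 CPM. That list also holds Kcp, which enhances BMP signals. The highest counts of the list in any library were those of Nbl1 (9376), Fstl1 (8246), Twsg1 (6360) and Crim1 (5832). Most members kept a narrow range: the highest group mean CPM was 1.19 times the lowest for Bmp6, 1.32 times for Bmp7, 1.34 times for Bmp5, 1.41 times for Nog, 1.43 times for Chrdl1 and 1.47 times for Bmp2. The members that varied more were Bmp4 (1.8 times), Grem1 (2.03 times), Bmp3 (2.46 times) and Gdf10 (3.93 times).

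**Figure D1:**
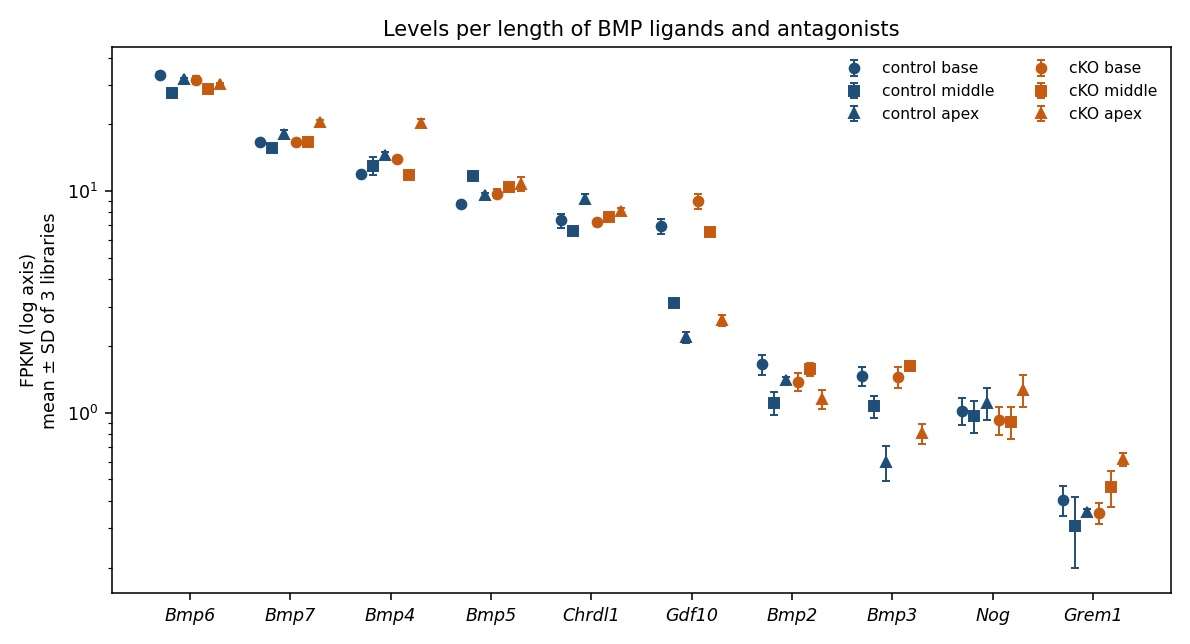
Mean FPKM (log axis) of the 10 members in the 6 groups, with bars for the SD of 3 technical libraries. Bmp6, Bmp7, Bmp4 and Bmp5 hold the first 4 places in all groups, and Gdf10 (3.93 times) and Bmp3 (2.46 times) have the largest ratios of the highest to the lowest group mean CPM.

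The 10 genes are all protein coding and lie on 7 chromosomes in GENCODE M21 on GRCm38. The members with the widest range are Gdf10 at chr14:33923587-33937983 on the plus strand (3 exon blocks), Bmp3 at chr5:98854415-98884396 on the plus strand, Grem1 at chr2:113746164-113758646 on the minus strand and Bmp4 at chr14:46383520-46390669 on the minus strand. Exons of Bmp4 overlap those of Gm15217, exons of Bmp5 those of Gm26903 and exons of Bmp6 those of Txndc5. Strand-specific counting is not stated, so reads in these overlaps could have been assigned to either gene. The RefSeq promoter table on GRCm38.p6 held entries for 5 of the 10 members, and Bmp2, Bmp3, Bmp7, Chrdl1 and Nog were without one. The 250 bases before the start are printed for Gdf10, the member that differed most between regions, and for Bmp4 and Grem1, which were highest in the cKO apex. They run 5′ to 3′ on the strand of the gene, with CG pairs in capitals. They cover chr14:33923337-33923586 (plus strand) for Gdf10, chr14:46390670-46390919 (minus strand) for Bmp4 and chr2:113758649-113758898 (minus strand) for Grem1. The bases just after the stretch were found in a GENCODE M21 transcript of the gene for Gdf10 and Bmp4, but not for Grem1.
Gdf10: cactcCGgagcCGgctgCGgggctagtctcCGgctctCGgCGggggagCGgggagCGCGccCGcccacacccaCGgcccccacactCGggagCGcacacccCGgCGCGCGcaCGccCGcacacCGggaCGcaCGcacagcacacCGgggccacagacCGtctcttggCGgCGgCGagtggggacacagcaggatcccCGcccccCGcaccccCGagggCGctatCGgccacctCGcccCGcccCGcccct
Bmp4: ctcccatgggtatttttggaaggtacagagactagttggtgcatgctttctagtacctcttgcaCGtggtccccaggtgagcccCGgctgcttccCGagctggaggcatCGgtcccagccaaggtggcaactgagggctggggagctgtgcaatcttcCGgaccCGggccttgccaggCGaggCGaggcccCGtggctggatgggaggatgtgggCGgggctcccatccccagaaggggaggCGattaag
Grem1: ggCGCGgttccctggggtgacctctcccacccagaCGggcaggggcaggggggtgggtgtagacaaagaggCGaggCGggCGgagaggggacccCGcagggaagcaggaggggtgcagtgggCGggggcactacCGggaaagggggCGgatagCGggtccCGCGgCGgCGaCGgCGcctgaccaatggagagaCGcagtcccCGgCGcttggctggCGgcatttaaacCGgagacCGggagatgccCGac
The Gdf10 stretch is the richest of the 3 in G and C, at 78.8% with 35 CG pairs, followed by Grem1 at 72.0% with 24 and Bmp4 at 63.2% with 11. The median over 32851 promoters of the same length was 52.4% with 6 CG pairs. On both strands, 5 motifs were searched: GACCACCCA (GLI factors, in 0.225% of all promoters), GGCGCC (a GC-rich Smad site, 9.59%), GTCTAGAC (a palindromic Smad site, 0.167%), TATAAA (12.4%) and CCAAT (33.8%). GGCGCC and GTCTAGAC read the same on both strands, and the matches found did not overlap. Grem1 held GGCGCC from base 173 and CCAAT from base 182 of the printed stretch, counted from its 5′ end, and the Gdf10 and Bmp4 stretches held none of the 5.

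Gdf10 was lower toward the apex in both genotypes, and it was the member that differed most along the cochlea. In control mice it measured 16.1, 16.8 and 14.6 CPM in the base, 6.92, 7.54 and 7.31 in the middle and 5.56, 5.15 and 4.97 in the apex. In cKO mice it measured 18.9, 20.6 and 22.1 CPM in the base, 15.6, 15.6 and 14.7 in the middle and 6.51, 6.11 and 5.81 in the apex. Within each genotype the libraries of the 3 regions did not overlap, with the base highest and the apex lowest. From the highest group to the lowest the order was cKO base, control base, cKO middle, control middle, cKO apex and control apex, and of the neighbours in this order only the control base and the cKO middle overlapped. The levels rest on 450 to 1599 counts per group.

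Bmp3 was also lower in the apex than in the base of both genotypes, but its middle differed with genotype. Control libraries had 9.35, 8.09 and 9.45 CPM in the base, 6.64, 5.92 and 5.73 in the middle and 3.39, 3.65 and 4.66 in the apex. The cKO libraries had 8.7, 8.24 and 8.78 CPM in the base, 9.62, 9.28 and 9.87 in the middle and 5.28, 4.59 and 5.33 in the apex. In control the 3 regions stepped down without overlap, while in cKO the middle libraries lay above those of the base (log2 0.13, edgeR adjusted p = 0.195) and the apex was low. The cKO middle and the control base, the control base and the cKO base, and the cKO apex and the control apex overlapped.

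**Figure D2:**
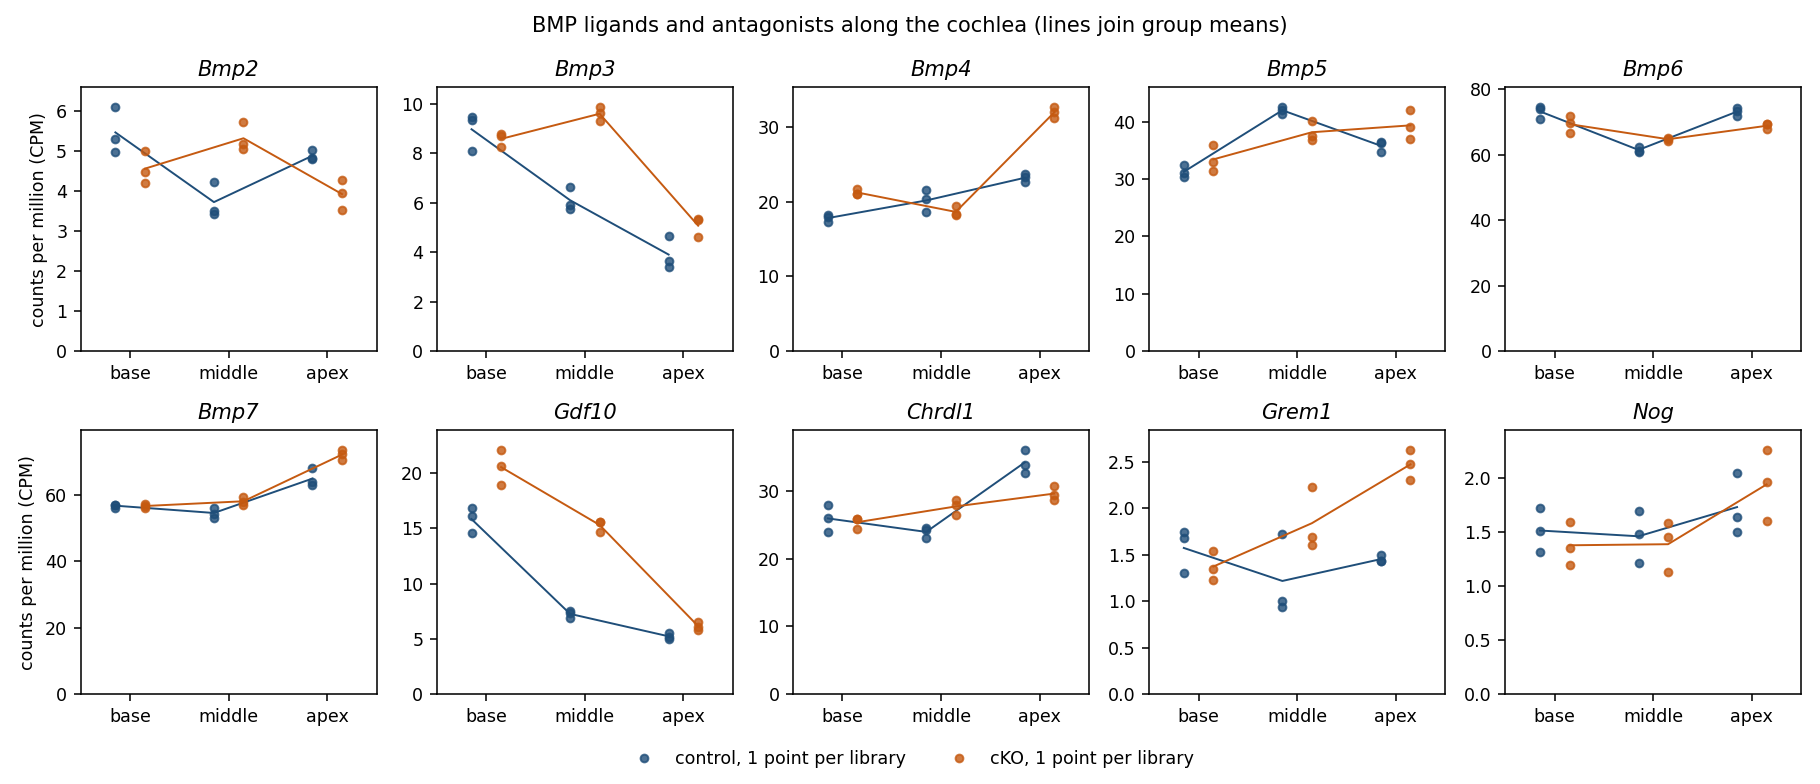
CPM of each member in the 18 libraries (points, 1 per technical library), by region and genotype, with lines through the group means and axes from 0. Gdf10 and Bmp3 are low in the apex of both genotypes, while Bmp4, Bmp7 and Grem1 have their highest libraries in the cKO apex.

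On libraries, edgeR's quasi-likelihood test with Benjamini-Hochberg adjustment, at an adjusted p under 0.05 and an absolute log2 change of at least 1, called 2 of 10 members in the control apex against the base, where 5.48% of all genes were called and 3.2% were called lower. They were Gdf10 at log2 -1.67 ± 0.0756 (SE, adjusted p = 5.21e-20) and Bmp3 at -1.26 ± 0.099 (adjusted p = 2.66e-13). In the cKO apex against the base 1 of 10 was called, beside 6.6% of all genes (3.81% lower): Gdf10 at -1.78 ± 0.0716 (edgeR, adjusted p = 1.78e-21), whereas Bmp3 lay at -0.79 ± 0.0976, under the fold threshold. In the control middle against the base Gdf10 alone was called (1 of 10, with 2.73% of all genes and 1.2% lower), at -1.16 ± 0.0702. In the cKO apex against the middle it was again the 1 member called (4.6% of all genes, 2.93% lower), at -1.32 ± 0.0729. With limma on log2(FPKM + 1) the Bmp3 value in the control apex against the base (-0.63) and the Gdf10 value in the control middle against the base (-0.94) fell under the fold threshold. The other 8 members lay between -0.24 and 0.34 in the control apex against the base, and the median of the 10 was 0.02 against 0 for all genes.

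Several other members were higher toward the apex by less than the fold threshold. In the control apex against the base Chrdl1 was higher by log2 0.34 ± 0.0451 (edgeR, adjusted p = 6.88e-08), with libraries of 24, 26 and 27.9 CPM in the base and 33.9, 32.7 and 36.1 in the apex, without overlap. Bmp4 was higher by 0.31 ± 0.0467 in control and by 0.55 ± 0.0436 in cKO, where it stood at 21, 21 and 21.7 CPM in the base and 18.3, 18.2 and 19.4 in the middle. Bmp7 was higher by 0.13 ± 0.029 in control and 0.31 ± 0.0294 in cKO. Grem1 was higher in cKO alone, by 0.81 ± 0.196 (edgeR, adjusted p = 0.000664), and in control it lay at -0.17 ± 0.205 and did not pass. Bmp5 peaked in the control middle, at 42.6, 41.4 and 42 CPM against 31, 30.4 and 32.4 in the base (0.4 ± 0.0433), while Bmp2 (-0.59 ± 0.11) and Bmp6 (-0.28 ± 0.0269) were lower in the middle than in either other control region. Bmp2 had 3.43, 3.51 and 4.24 CPM in the control middle against 6.11, 5.31 and 4.99 in the base. Nog, at 1.13 to 2.26 CPM over all libraries, passed the adjusted p in the cKO apex against the middle alone among the comparisons of libraries (0.48 ± 0.189, edgeR, adjusted p = 0.0343). It lost it there with DESeq2, with limma on log2(FPKM + 0.1) (0.43), and without cKO middle replicate 2 (0.35) or cKO apex replicate 2 (0.47) or 3 (0.35).

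Most markers of hair cells and nerve were also higher toward the apex, while those of supporting cells went both ways. In the control apex against the base edgeR called 7 of 8 hair cell markers higher (median log2 1.71). Of 8 supporting cell markers 2 were called higher, while 4 passed the adjusted p upward and 3 downward (log2 -0.6 to 1.88). Spiral ganglion neuron markers passed the adjusted p upward for 7 of 8 genes and Schwann cell markers for 6 of 6, with 0 called in either list. In the cKO apex against the base 6 of 8 hair cell markers and 2 of 8 supporting cell markers were called higher, as were 5 of 6 airway epithelium markers and 1 of 8 of the spiral ganglion. The part of these markers in the Chrdl1, Bmp4, Bmp7 and Grem1 values was not tested.

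The remaining region comparisons called no member. For the control apex against the middle edgeR called 0 of 10 (5.3% of all genes), with 8 members at an unadjusted p under 0.05, where 9147 of the 17901 genes had one. For the cKO middle against the base it called 0 of 10 (3.26%), with 4 members and 9261 genes at that unadjusted p. DESeq2 and limma also called 0 in both.

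The 6 pools, each the sum of its 3 libraries, were fitted with genotype and region as terms and 2 residual degrees of freedom. No group holds a second pool, so what genotype and region leave unexplained stands for the spread between pools. A genotype effect that differs between regions is part of that remainder, which is not a measure of the spread between animals. The labels do not say whether the 3 regions of a genotype came from the same animals. Gdf10 was lower in the apex than in the base by log2 -1.72 ± 0.219 (edgeR, adjusted p = 0.0247), and Bmp3 by -1.04 ± 0.193 (adjusted p = 0.049). These were 2 of 10 members, where 2.04% of the 19446 genes tested on pools were called and 0.972% were called lower. The Bmp3 call lay at the edge of both thresholds. It was lost without control base replicate 2 (adjusted p = 0.0512), control middle replicate 1 (0.0538), control apex replicate 1 (0.0531), cKO base replicate 1 (0.0506), cKO middle replicate 2 (0.051) or cKO apex replicate 2 (0.0537).

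Leaving out a whole pool leaves 1 residual degree of freedom. Gdf10 then kept its sign in the edgeR pool fit and lost the call without the control base (log2 -1.56, adjusted p = 0.0601), the control apex (-1.96, 0.147), the cKO base (-1.87, 0.0531) or the cKO apex (-1.52, 0.157). Bmp3 lost its call without the control base (-0.73, 0.118), the control apex (-0.98, 0.268) or the cKO apex (-1.1, 0.226). In the apex against the middle over pools edgeR called 0 of 10 (0.401% of all genes, with 5 members and 3524 of 19446 genes at an unadjusted p under 0.05), with Gdf10 at -0.94 (adjusted p = 0.129) and Bmp3 at -0.82 (0.132). Without the control middle pool Gdf10 was called there, at -1.3 (adjusted p = 0.0345). In the middle against the base over pools no gene of 19446 was called (0%), with 2335 genes and 3 members at an unadjusted p under 0.05 in edgeR, the 1 tool run on the pools.

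**Figure D3:**
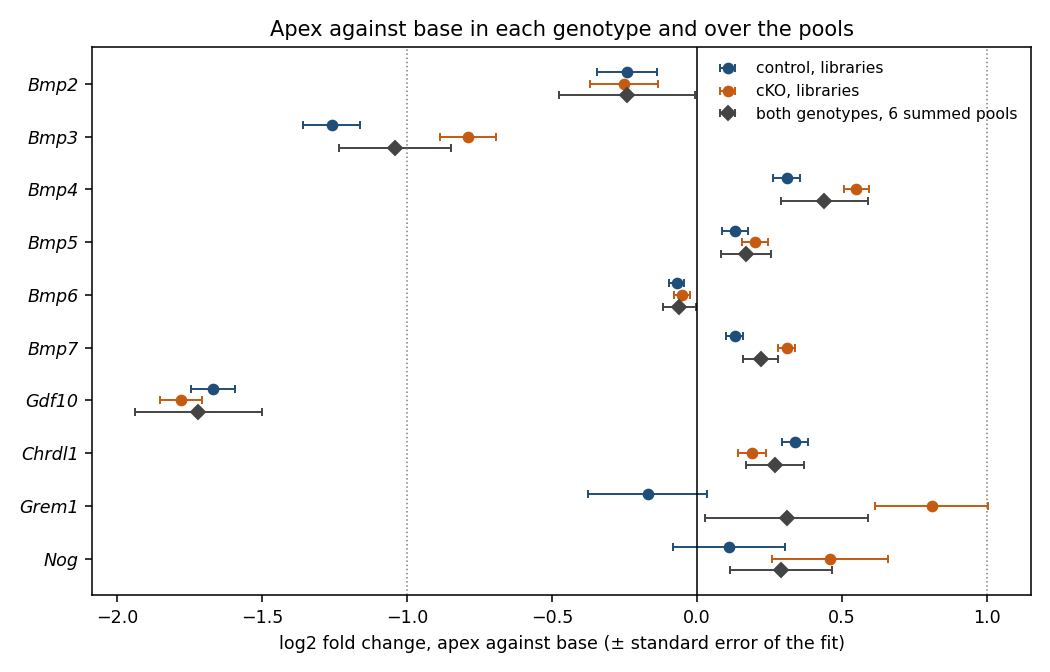
Log2 change of the apex against the base for each member, in control and cKO libraries and over the 6 summed pools, with bars for the standard error of the edgeR fit and dotted lines at the fold threshold of 1. Gdf10 lies near -1.7 in all 3 fits and Bmp3 between -1.26 and -0.79, while the other members, except Grem1 in the cKO libraries, lie nearer 0.

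Markers of skeletal and fibroblast tissue were lower along the same axis as Gdf10 and Bmp3. The 8 cartilage markers summed to 1403 to 1445 CPM in the control base, 725 to 733.5 in the middle and 400.7 to 407 in the apex, with Matn3 at 0 in the control middle and Matn3 and Col10a1 at 0 in the control apex. In cKO they summed to 1252 to 1271, 908.9 to 917.3 and 485.8 to 492.2 CPM, with Matn3 at 0 in the apex. In the control apex against the base, 6 of 6 tested cartilage markers, 9 of 12 markers of osteoblast and bone matrix and 6 of 9 markers of meninges and perivascular fibroblasts were called lower in edgeR.

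The osteoblast list went from 8258 to 8287 CPM in the control base to 7206 to 7275 in the middle and 5440 to 5476 in the apex. Its highest count in any library was that of Spp1, at 215063, against 35127 for Col1a2, so the sums weigh Spp1 most. The list of meninges and perivascular fibroblasts went from 911.9 to 922.7 CPM to 738.9 to 755.6 and 502.7 to 507.4, and that of spiral ligament fibrocytes from 35765 to 36068 CPM to 28598 to 28654 and 24554 to 24667, with 2 of 8 called lower in the apex against the base. Also called lower there were 4 of 8 oligodendrocyte and astrocyte markers, 3 of 4 tested osteoclast markers, 3 of 6 skeletal muscle markers and 2 of 6 tested airway epithelium markers. Of the oligodendrocyte and astrocyte list 3 other genes passed the adjusted p upward. Its sum was higher in the control apex, at 797 to 814.7 CPM against 628.7 to 646 in the base. Of the cerebellar neuron list 2 of 8 were called higher and 1 lower. No gene of the osteoblast, meningeal and fibrocyte lists was at 0 in any group. In bulk RNA, fewer cells of a type and less RNA per cell cannot be told apart, and the part of these tissues in the Gdf10 and Bmp3 differences was not tested.

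**Figure D4:**
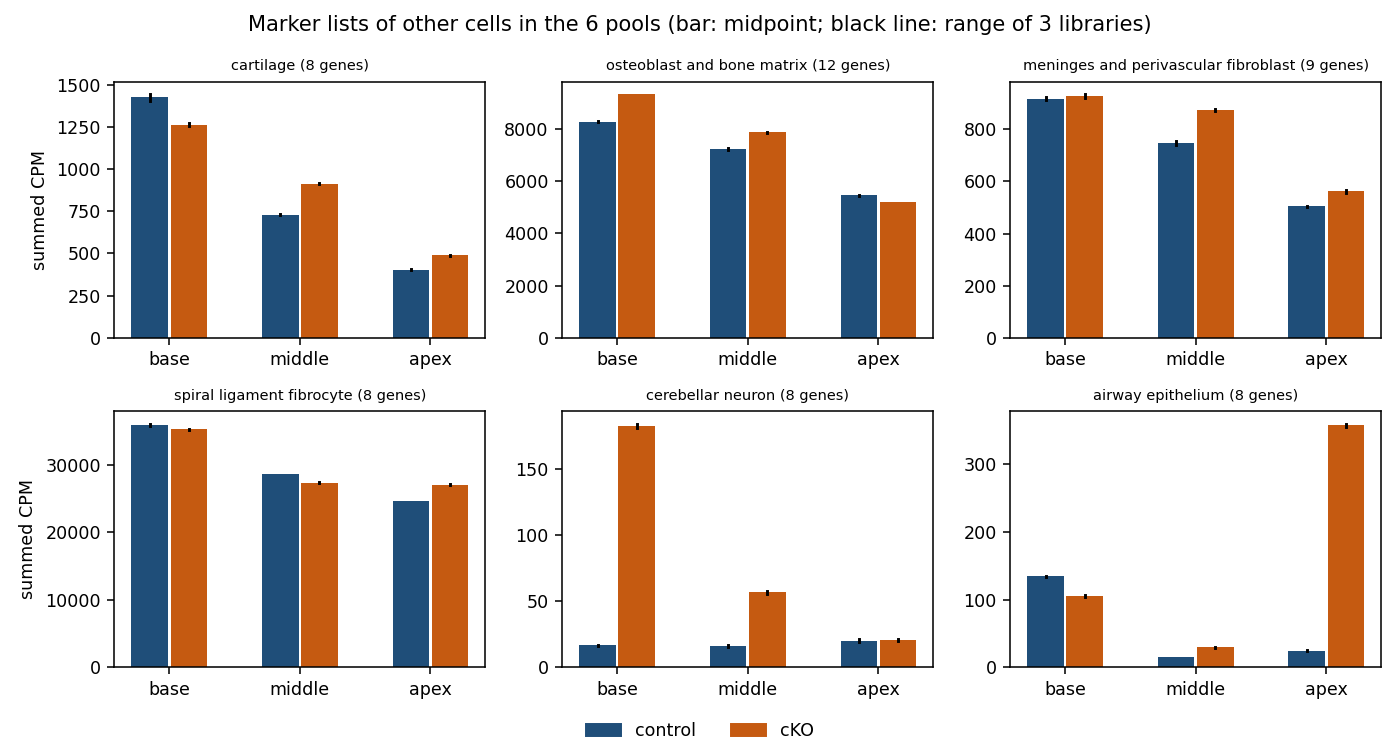
Summed CPM of 6 marker lists in the 6 groups, as bars from 0 at the midpoint of 3 libraries with black lines for their range. The cartilage, osteoblast, meninges and fibrocyte lists are highest in the base of both genotypes, the cerebellar list in the cKO base and the airway list in the cKO apex.

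The genes most like these members over the 6 group means, by Pearson's r of log2 CPM among 15124 tested genes of at least 1 CPM, are a description without a test, since the groups share regions and genotypes. For Gdf10 they were Net1 (r = 0.9989), Marveld1 (r = 0.9988) and Ccdc141 (r = 0.9941), which fell less, by 0.37, 0.54 and 0.42 on the log2 scale in the control apex against the base. For Bmp3 they were Sgms2, a sphingomyelin synthase (r = 0.9901), Ssh2, a cofilin phosphatase (r = 0.9887), and Slc30a10, a manganese transporter (r = 0.9884). Sgms2 fell by 1.21 on the log2 scale in that comparison and was higher by 0.8 in the cKO middle. Gdf10 and Bmp3 had r = 0.94 with each other over the same 6 points. Together they made up 10.4% of the ligands' FPKM in the control base, 5.74% in the middle and 3.56% in the apex, and 12.5%, 10.6% and 3.95% in cKO.

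Between genotypes, the one member called was Gdf10 in the middle of the cochlea. Its cKO libraries (14.7 to 15.6 CPM) lay above the control libraries (6.92 to 7.54 CPM), and the log2 change was 1.06 ± 0.0689 (edgeR, adjusted p = 4.82e-15). This was 1 of 10 members, with 2.72% of all genes called and 2.15% called higher, and the value lay close to the fold threshold. With limma on log2(FPKM + 1) it was 0.87, under that threshold, and no member was called. Bmp3 (0.64 ± 0.0862), Grem1 (0.58 ± 0.2), Bmp2 (0.5 ± 0.107) and Chrdl1 (0.2 ± 0.0463) were higher in the cKO middle and passed the adjusted p alone. So did Bmp7 (0.08), and Bmp4 (-0.13) and Bmp5 (-0.15) in the other direction. The adjusted p alone was thus passed by 6 members upward and 2 downward, where it was passed by 35.7% of all genes (17.9% upward, 17.7% downward), and the median of the 10 was 0.14 against 0 for all genes. The libraries of 7 members did not overlap, where those of 45.9% of all genes did not.

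Single libraries and the choice of tool decided some of these smaller values. Bmp4 and Bmp7 lost the adjusted p with DESeq2 and with limma at either pseudocount, and Grem1 with limma. Grem1 lost the adjusted p without control middle replicate 1 (0.42) or 3 (0.46) or cKO middle replicate 1 (0.42). Bmp4 lost it without control middle replicate 1 (-0.12) or 3 (-0.08) or cKO middle replicate 1 or 2 (-0.11 each), and Bmp7 without control middle replicate 2 (0.06) or 3 (0.07) or cKO middle replicate 1 (0.06) or 3 (0.08).

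Markers of other tissues differed between the same pools, in both directions. Beside the cartilage values above, the osteoblast list had 7841 to 7893 CPM against 7206 to 7275 in control, with 4 of 12 genes called higher and 0 lower. The list of meninges and perivascular fibroblasts had 869.6 to 879.1 CPM, with 1 of 9 called higher. Of the airway epithelium list 4 of 6 tested genes were called higher, with 28.9 to 30.6 CPM against 15.7 to 16.1. Also called higher were 2 of 8 supporting cell, 2 of 6 skeletal muscle and 1 of 8 hair cell markers. Of the supporting cell markers 4 passed the adjusted p upward and 4 downward, and their sum was 2815 to 2839 CPM against 2816 to 2845 in control. The list of oligodendrocytes and astrocytes was lower in cKO, at 696.7 to 713.7 CPM against 1181 to 1183, with 5 of 8 genes called lower and a median log2 change of -2.27. The 8 cerebellar neuron markers summed to 55.8 to 57.8 CPM against 15.7 to 17.1, with 2 of 8 called higher and Skor2 at 0 in the control middle. The part of these markers in the Gdf10 value of the middle was not tested.

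In the base, edgeR called 0 of 10 members between genotypes (3.03% of all genes), with 4 at an unadjusted p under 0.05, as 7709 of the 17901 genes had, and none called by DESeq2 or limma. Gdf10 was higher in cKO by log2 0.36 ± 0.0578 and Bmp4 by 0.24 ± 0.0487, and these were the 2 members whose libraries did not overlap (44.2% of all genes). Bmp2 (-0.28) and Bmp6 (-0.09) were lower and passed the adjusted p alone, as 36.1% of all genes did (16.5% upward, 19.6% downward). Bmp2 lost it with DESeq2 (-0.27), with limma on log2(FPKM + 1) (-0.16) or log2(FPKM + 0.1) (-0.25), and without control base replicate 1 (-0.19) or 2 (-0.31) or cKO base replicate 1 (-0.27) or 3 (-0.22), and Bmp6 with DESeq2 (-0.08) and without control base replicate 2 (-0.07) or cKO base replicate 2 (-0.06). The cerebellar neuron list reached 181.3 to 184.7 CPM in the cKO base, against 16.6 to 17.4 in control, where Gabra6 and Skor2 were at 0, and 8 of 8 genes were called higher. The list of red blood cells had 1415 to 1433 CPM against 478.2 to 485.4, with 6 of 6 tested genes called higher. Also called higher were 3 of 6 skeletal muscle, 2 of 8 oligodendrocyte and astrocyte and 1 of 7 tested stria markers. Of the oligodendrocyte and astrocyte list 2 genes passed the adjusted p downward, and its sum was 614.4 to 623.6 CPM against 628.7 to 646 in control. Called lower were 4 of 9 markers of meninges and perivascular fibroblasts, 2 of 4 tested osteoclast markers and 1 of 12 of osteoblast and bone matrix. Of the meningeal list 2 genes passed the adjusted p upward, and its sum was 919.2 to 935.7 CPM against 911.9 to 922.7 in control. Of the osteoblast list 7 genes passed the adjusted p downward and 2 upward, although its sum was 9313 to 9336 CPM against 8258 to 8287 in control. The part of these lists in the Gdf10 and Bmp4 values of the base was not tested.

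In the apex, Bmp4, Bmp7 and Grem1 had their highest libraries of all 18 in the cKO. Bmp4 measured 31.2, 32.7 and 32 CPM in the cKO apex and 23.7, 23.3 and 22.6 in the control apex. Bmp7 measured 72.3, 73.6 and 70.6 CPM against 63.8, 68.1 and 62.9, and Grem1 2.31, 2.63 and 2.48 CPM against 1.5, 1.43 and 1.43. For each of these 3 genes the cKO apex libraries lay above all 15 others, with no overlap. The 3 genes are named because they were highest there, and the share of all genes with this order was not counted.

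None of these changes reached the fold threshold, and edgeR called 0 of 10 members in the apex (2.04% of all genes), with 9 at an unadjusted p under 0.05, as 8454 of the 17901 genes had, and 0 called by DESeq2 or limma. Bmp4 was higher by log2 0.48 ± 0.0418 (edgeR, adjusted p = 7.16e-12), Grem1 by 0.79 ± 0.189 (adjusted p = 0.000909) and Bmp7 by 0.17 ± 0.0279. Bmp3 (0.4 ± 0.113), Gdf10 (0.26 ± 0.0945) and Bmp5 (0.16 ± 0.0433) were also higher and passed the adjusted p alone, while Bmp2 (-0.29 ± 0.113), Chrdl1 (-0.19 ± 0.0444) and Bmp6 (-0.07 ± 0.0267) were lower. That makes 6 members upward and 3 downward, where 40.6% of all genes passed the adjusted p alone (21.8% upward, 18.8% downward), and 8 members whose libraries did not overlap, where those of 49.2% of all genes did not. Grem1 rests on 125 counts over the control apex libraries and 200 over the cKO apex libraries. Nog, at 0.19 ± 0.186, did not pass.

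Gdf10 lost the adjusted p in the apex with DESeq2 and without control apex replicate 2 (0.25) or 3 (0.23) or cKO apex replicate 1 (0.21) or 2 (0.26), and Bmp5 without cKO apex replicate 2 (0.11). Bmp2 lost it with DESeq2 (-0.29), with limma on log2(FPKM + 1) (-0.17) or log2(FPKM + 0.1) (-0.28), and without control apex replicate 1 (-0.29), 2 (-0.26) or 3 (-0.3) or cKO apex replicate 1 (-0.22) or 2 (-0.3). Bmp3 lost it with limma on log2(FPKM + 1) (0.18). Bmp6, the smallest of these values, lost it with DESeq2, limma or the replicate block and without any 1 of the control apex, cKO apex, control middle or cKO middle libraries or cKO base replicate 3, at -0.07 to -0.05. Markers of other tissues differed in the same pair of pools. The airway epithelium list had 353.5 to 358.9 CPM in the cKO apex and 23.8 to 26.1 in the control apex, with 5 of 6 tested genes called higher, none called lower and none of its 8 genes at 0. The list of red blood cells had 842.4 to 860.8 CPM against 345.9 to 350.1, with 6 of 6 called higher, and that of spiral ganglion neurons 4519 to 4553 CPM against 6186 to 6213, with 0 of 8 called. The list of oligodendrocytes and astrocytes had 590.8 to 592.8 CPM against 797 to 814.7, with 4 of 8 genes called lower (median log2 -2.42) and Olig2 at 0 in the cKO apex. Of the markers of meninges and perivascular fibroblasts 4 of 9 were called lower, although their sum was 556.6 to 565.8 CPM against 502.7 to 507.4. Of 12 osteoblast and bone matrix markers 2 were called higher and 11 passed the adjusted p upward. The sum of that list was nevertheless lower in the cKO apex, at 5180 to 5206 CPM against 5440 to 5476. Of 6 skeletal muscle markers 1 was called higher. The part of all these lists in the Bmp4, Bmp7 and Grem1 values was not tested.

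**Figure D5:**
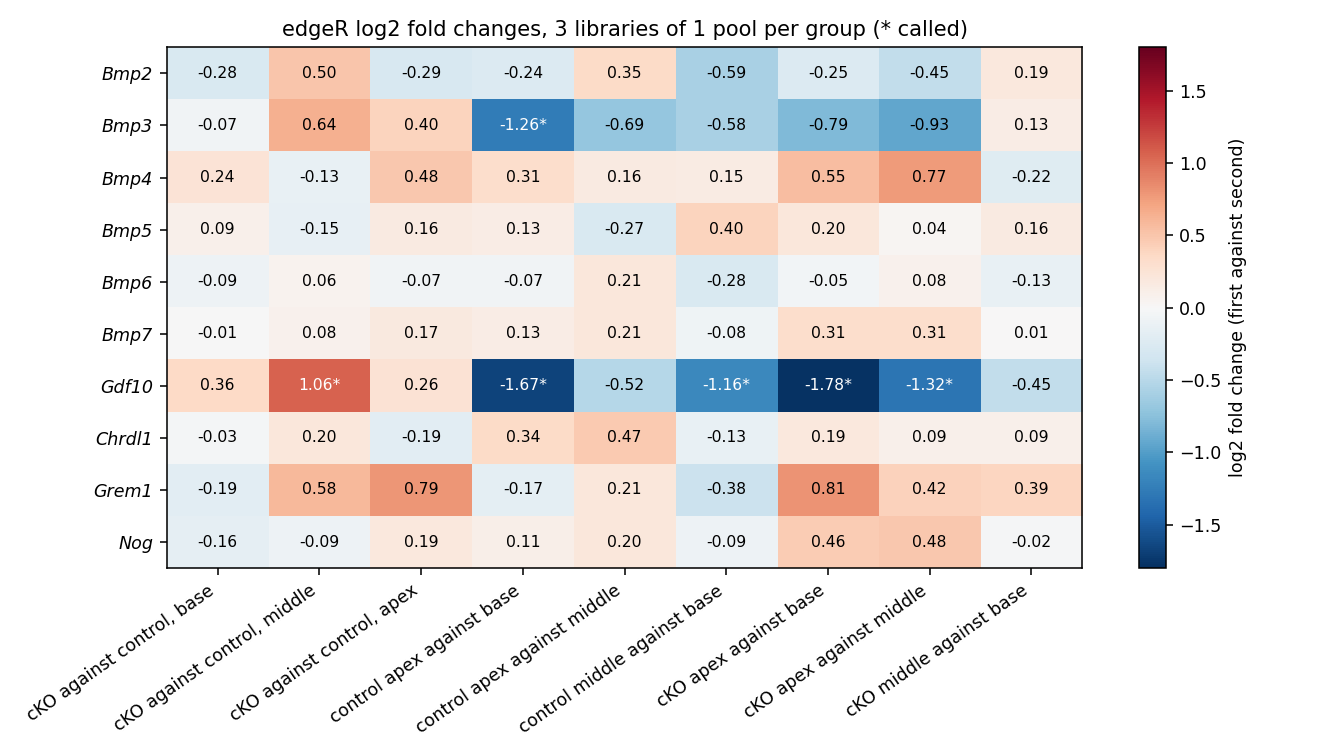
EdgeR log2 changes of the 10 members in 9 comparisons of libraries, as colour and printed value, with a star where the adjusted p and the fold threshold were both passed. The 6 stars are 5 for Gdf10 and 1 for Bmp3.

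The genotype effects were also compared between regions, and edgeR called no member for the apex against the base (0 of 10, 2.41% of all genes, with 5 members and 6073 of 17901 genes at an unadjusted p under 0.05). It called none for the apex against the middle (0 of 10, 3.6%, 7 members and 8107 genes) or the middle against the base (0 of 10, 4.7%, 9 members and 7303 genes), and neither DESeq2 nor limma called any. The Gdf10 effect was larger in the middle than in the base by log2 0.7 ± 0.091 (edgeR, adjusted p = 8.92e-08) and smaller in the apex than in the middle by -0.81 ± 0.118 (adjusted p = 8.65e-07), both under the fold threshold. The Bmp3 effect was larger in the middle than in the base by 0.71 ± 0.122 (adjusted p = 1.38e-05). The Grem1 effect was larger in the apex than in the base by 0.98 ± 0.285 (adjusted p = 0.00901), just under the fold threshold. It was called without control base replicate 2 (1.11), control apex replicate 1 (1.01), cKO base replicate 3 (1.07) or cKO apex replicate 1 (1.03). The Grem1 effect in the middle against the base (0.77) was called without control middle replicate 2 (1.11).

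Over the 6 pools, the genotype effect across regions was not called for any of the 19446 genes (0%) in edgeR. At an unadjusted p under 0.05 there were 2133 genes and 1 member. That member was Gdf10, at log2 0.56 ± 0.176 (edgeR, adjusted p = 0.406). The other 9 members lay between -0.03 (Bmp2 and Bmp6) and 0.4 (Grem1). With 1 pool per region and genotype, a difference between genotypes in a single region has no replicate of the animals.

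Of 60 other genes of the pathway, 54 were tested on libraries. In the control apex against the base 4 were called higher and 3 lower, where 981 of all 17901 genes were called. Gdf6, a ligand of joint and eye development, had 45.6 ± 0.393 CPM (SD, n = 3 libraries) in the control apex and 11.9 ± 0.76 in the base, opposite in direction to Gdf10, with a log2 change of 1.87 ± 0.0429. Kcp, a kielin/chordin-like protein that enhances BMP signals, had 19 ± 1.06 and 5.11 ± 0.114 CPM, with a change of 1.83 ± 0.0756. Fst, which is also part of this list, rose by 3.43 from base to apex. Bmp8b was higher by 1.11, Bmp8a lower by -1.39, and Sost, the sclerostin gene of osteocytes, lower by -1.57. Bmp8a and Bmp8b are close copies whose reads the authors' counting could have split, and the Bmp8b call was lost without control base replicate 1 or 3. Gdf5 (-2.78) rests on 35 counts in the control base and 5 in the apex. With limma on log2(FPKM + 1) the calls of Bmp8a, Bmp8b and Gdf5 were lost. The pool fit called Fst (2.9), Bmp8a (-1.18), Bmp8b (1.03), Gdf6 and Kcp in the apex against the base, beside 2.04% of all 19446 genes. Bmp8a and Bmp8b lost that call without some single libraries. Over the pools, Gdf6 was higher in the apex by 1.81 ± 0.0888 (edgeR, adjusted p = 0.00862) and Kcp by 1.61 ± 0.216 (0.0276), with calls lost when either apex pool was left out and, for Kcp, either base pool.

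Between genotypes, 1 of the 54 other pathway genes was called in the base, 4 in the middle and 2 in the apex, where 542, 487 and 365 of all 17901 genes were called. In the middle Tll1, a protease that cuts chordin (1.8 ± 0.209), Sost (1.26 ± 0.0447) and Gdf5 (1.26 ± 0.398, on 19 and 54 counts) were higher in cKO, and Fst was lower (-1.1 ± 0.099). The Gdf5 call was lost without control middle replicate 3 or cKO middle replicate 3, with DESeq2 and with limma at either pseudocount. The Tll1 and Fst calls of the middle were lost with limma on log2(FPKM + 1). In the base Tll1 alone was called, at 1.07 ± 0.267, and lost the call without control base replicate 1 or 3 and with limma at either pseudocount. In the apex Fst was lower (-1.29 ± 0.0629) and Gdf1 higher (2.08 ± 0.507), but the control apex mean of Gdf1, 0.8 CPM, had an SD of 1.36 over 3 libraries, and DESeq2 did not call it. Of 7 receptors, edgeR, DESeq2 and limma called 0 in each of these comparisons. In edgeR 4 had an unadjusted p under 0.05 between genotypes in the base, 3 in the middle and 3 in the apex, and 5 did in the control apex against the base.

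Of 8 target genes of BMP signalling, edgeR, DESeq2 and limma called 0 in the apex between genotypes. In edgeR 5 had an unadjusted p under 0.05, and 4 passed the adjusted p alone, as 40.6% of all genes did. They were Id1, Id3 and Atoh8 (0.22 ± 0.0695) upward and Id2 (-0.11 ± 0.0253) downward. These 4 genes are named after their values were seen. Id1 and Id3 had 82.1 ± 1.89 and 200.5 ± 0.57 CPM in the cKO apex and 56 ± 1.74 and 161.7 ± 3.51 CPM in the control apex. Their log2 changes were 0.58 ± 0.0257 for Id1 and 0.33 ± 0.0213 for Id3. Id2 had 70.5 ± 2.13 CPM in the cKO apex and 77.6 ± 1.73 in the control apex. Between genotypes in the base and in the middle 0 of the 8 targets were called as well. With edgeR, 1 target passed the adjusted p alone upward and 2 downward in the base, where 36.1% of all genes passed. In the middle 2 passed upward and 1 downward, where 35.7% of all genes passed.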

How the data were processed

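Per the labels, a TruSeq v2 kit with Ribo-Zero was used. STAR 2.5.2b, Cuffdiff 2.2.1 and GRCm38/mm10 are named in the submitters' processing notes, and the step that made each column is not given in the sources used here. The authors deposited expected counts, of which 89.2% to 89.9% per library were whole (tolerance 1e-06), and FPKM values and mean FPKM per group. The counts were rounded. EdgeR 4.0.16 (R 4.3.3) with TMM factors (0.977 to 1.03), filterByExpr and quasi-likelihood F tests fitted the 6 groups (12 residual degrees of freedom), and CPM values used plain library totals. The common biological coefficient of variation was 0.00988 among libraries and 0.116 among pools. Libraries of a pool differed by a chi-square of 1.19 to 1.6 per degree of freedom and were kept apart. Alternatives were other scalings, DESeq2, limma on log2(FPKM + 1) and log2(FPKM + 0.1), no filter, no fold threshold, a replicate block and left-out libraries. Code was tested on simulated data. Standard errors between libraries cover the technical spread among libraries of 1 pool, and those of the pool fit what genotype and region leave unexplained. Reads carry no molecular identifiers, so duplicate reads cannot be told from separate molecules.

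The members, pathway lists and marker lists were chosen with earlier results of these data known. All 10 members are named. Other pathway genes are named where called in a genotype comparison or in the control apex against the base, with Fst, and for Gdf10 and Bmp3 the 3 genes most alike over the groups.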

Additional observations from a re-analysis of the deposited data

Results flagged for a closer look

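Genotype effects of opposite sign in different regions, each past the edgeR adjusted p and with a difference past it, were found for 4 members. They make 6 combinations of a member and a pair of regions. None of these differences reached a log2 size of 1, and each region holds 1 pool per genotype.

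Bmp4 was higher in the cKO apex (0.48) and lower in the cKO middle (-0.13), a difference of 0.61 ± 0.0622 (edgeR, adjusted p = 4.85e-10). Its effect in the base was upward (0.24), so that middle and base differed by -0.37 ± 0.067 (adjusted p = 3.33e-05). The effect of -0.13 in the middle lost the adjusted p under library totals, DESeq2 and limma.

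Bmp2 went the other way: it was higher in the cKO middle (0.5) and lower in the cKO apex (-0.29) and cKO base (-0.28). Both decreases lost the adjusted p with DESeq2 and with limma. The apex and the middle differed by -0.79 ± 0.156 (edgeR, adjusted p = 9.07e-05), and the middle and the base by 0.78 ± 0.152 (adjusted p = 9.33e-05). Bmp5 was higher in the cKO apex (0.16) and lower in the middle (-0.15), a difference of 0.31 ± 0.059 (edgeR, adjusted p = 5.48e-05). Chrdl1 was lower in the cKO apex (-0.19) and higher in the middle (0.2), a difference of -0.38 ± 0.0642 (adjusted p = 8.88e-06). Groups of 3 libraries were not tested for outlying values.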

How the results depend on the processing

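In the counts of members called, the largest shifts came from the fold threshold. Without it the counts rose to 4 (base), 8 (middle) and 9 (apex) for cKO against control, to 7, 8 and 8 for the control apex against base, apex against middle and middle against base, and to 7, 8 and 4 in cKO. Of all 17901 genes 6459, 6385 and 7266, then 9396, 8139 and 5647, and 9895, 9115 and 8310 passed in the same comparisons. For the differences of the genotype effects they rose to 4 (apex minus base), 6 (apex minus middle) and 8 (middle minus base), with 4439, 6796 and 5985 genes. Limma on log2(FPKM + 1), which shrinks changes of low genes, gave 0 for the cKO middle against control (Gdf10 0.87), 1 for the control apex against base (Bmp3 -0.63) and 0 for the control middle against base (Gdf10 -0.94). Library totals in the pool fit gave 1 for the apex against the base (Bmp3 -0.99). With 1 library left out, the counts ran from 0 to 1 for the genotype effect in the apex minus the base and in the middle minus the base, where Grem1 entered. With 1 library or pool left out of the pool fit, a choice made after seeing the data, they ran from 0 to 2 for the apex against the base and from 0 to 1 for the apex against the middle. No called value changed sign. Of 81 member comparisons past the adjusted p, 20 lost it under a scaling, the block or a left-out library.

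With the replicate block, the replicate numbers as a term, no count of called members changed: for example 1 in the cKO middle against control and 2 in the control apex against base. The numbers mark technical libraries. In their deviations from the group means, same-numbered libraries of different groups correlated at -0.07 to 0.21 (median 0.01), and libraries of other numbers at -0.19 to 0.1 (median 0). For 12 of 18 libraries the best match in another group had the same number. Whether libraries of the same number share a batch was not tested. Depth limits Grem1 and Nog most, with 106 to 200 and 107 to 157 counts per group.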
